A study of Mus musculus with 12 samples.

Results

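The Speer genes are a family of similar copies, some of them near-identical, and 9 of them were followed here by gene symbol in the 2 count tables of the study: Speer2, Speer3, Speer4a, Speer4b, Speer4c, Speer4d, Speer4e, Speer4f1 and Speer4f2. They were 9 of 51826 entries in the sperm table and 9 of 23502 entries in the testis table. The members were chosen by symbol, with the genotype differences of these same libraries in view, so the members' own differences are given as a description, without p-values. Sperm came from P56 mice, either WT or Xap5l KO, a whole-body knockout made with CRISPR/Cas9 on the C57BL/6J background, and the study describes these sperm as released from the cauda epididymis. Testes came from P16 mice, either WT or Xap5 cKO, in which floxed Xap5 was removed by Stra8-GFPCre. Stra8 is switched on in germ cells, so the somatic cells of the cKO testis still carry Xap5. Each of the 4 groups held 3 libraries, all from poly(A)-selected RNA, and nothing in the labels states that each library was a separate animal, so the spread given is that between libraries, which may be partly technical.

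Speer stands for spermatogenesis-associated glutamate-rich protein. The genes are a multicopy family of rodents, known for transcription in the male germ line around and after meiosis, and their proteins resemble part of Dlg5, a scaffold protein found in many tissues. Xap5 and Xap5l, listed as Fam50a and Fam50b, are related nuclear proteins, Xap5 found in many tissues and Xap5l its intronless copy, known from the male germ line. P16 testes hold spermatogonia and spermatocytes and few haploid cells, whereas sperm from the epididymis carry what transcripts remain after spermiogenesis.

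All 9 members are annotated as protein-coding. On GRCm38, 8 of them lay on chromosome 5, from Speer3 at chr5:13791619-13796820 to Speer4b at chr5:27495639-27501438, and Speer2 lay alone at chr16:69856874-69863744. Speer4c overlapped the exons of Speer4cos, an annotated transcript of the opposite strand, so their reads cannot be told apart without strand. Coding lengths ran from 639 bases in Speer4d to 888 in Speer4f2. The coding sequences of Speer4f1 and Speer4f2 were identical at 98.8% of aligned bases, those of Speer4c and Speer4d at 98.7%, and those of Speer4d and Speer4e at 98.4%. Speer4a and Speer4b matched at 95.1%, and Speer2 and Speer3 at 90.3%. Speer2 and Speer3 stood farther off, with 76.7% to 79.8% identity to any Speer4 copy.

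**Figure D1:**
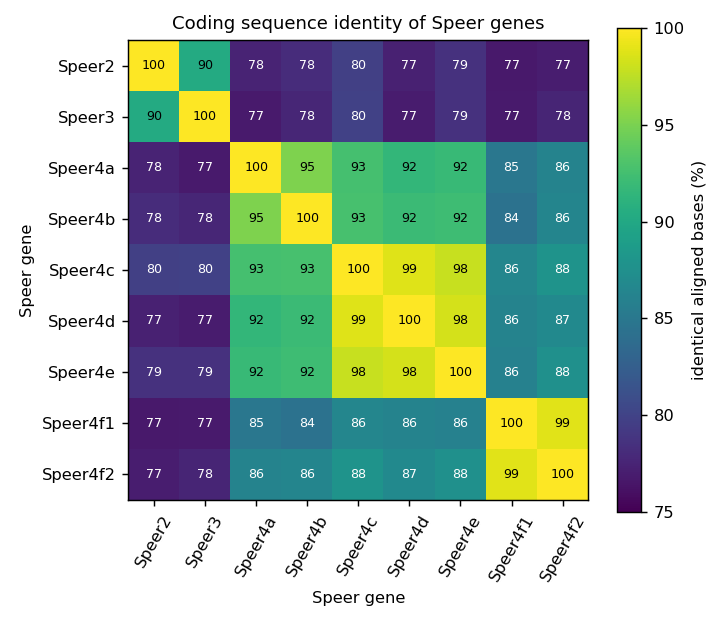
Percentage of identical aligned coding bases for each pair of the 9 Speer genes, as a colour scale and as rounded values in the cells. Speer2 and Speer3 form a pair at 90.3%, apart from the Speer4 copies, among which Speer4f1 and Speer4f2 match at 98.8%.

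A stretch of 60 coding bases shows how little separates the copies that a read would have to tell apart. It was taken from the 605 alignment columns in which no member had a gap, as the stretch of median variability, with 25 columns in which the members differed. Capitals mark bases that differ from the commonest base of the column, and each sequence is written 5′ to 3′ on the strand of the gene, on GRCm38 in the GENCODE M21 annotation:
Speer2, chr16:69860503-69860562, minus strand: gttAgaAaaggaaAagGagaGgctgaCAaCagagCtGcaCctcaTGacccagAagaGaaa
Speer3, chr5:13793263-13793322, plus strand: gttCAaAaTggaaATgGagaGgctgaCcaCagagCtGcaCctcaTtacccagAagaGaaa
Speer4a, chr5:26038238-26038297, minus strand: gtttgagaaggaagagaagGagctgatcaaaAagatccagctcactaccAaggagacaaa
Speer4b, chr5:27500126-27500185, minus strand: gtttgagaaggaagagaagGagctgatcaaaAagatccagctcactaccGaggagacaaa
Speer4c, chr5:15712940-15712999, minus strand: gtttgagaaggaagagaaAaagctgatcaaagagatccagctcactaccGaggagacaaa
Speer4d, chr5:15620335-15620394, plus strand: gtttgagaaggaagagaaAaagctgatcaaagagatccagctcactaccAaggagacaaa
Speer4e, chr5:14937142-14937201, minus strand: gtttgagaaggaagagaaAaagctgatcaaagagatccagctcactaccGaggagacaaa
Speer4f1, chr5:17477306-17477365, plus strand: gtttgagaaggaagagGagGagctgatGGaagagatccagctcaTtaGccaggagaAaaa
Speer4f2, chr5:17374390-17374449, plus strand: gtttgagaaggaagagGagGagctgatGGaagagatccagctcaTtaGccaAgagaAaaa
Speer4c and Speer4e were identical over this stretch, and the close pairs Speer4a with Speer4b, Speer4c with Speer4d and Speer4f1 with Speer4f2 each differed at a single position of it. Speer2 carried 15 capitals and Speer3 carried 16, against 2 to 8 in the Speer4 copies.

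Windows of transcript sequence gave a measure of how many reads could have belonged to another gene. Of the 150-base windows of each member, the length of 1 sequenced read, none of Speer2, Speer3 or Speer4b occurred exactly in another annotated gene. The share was 50.9% in Speer4c, 35.8% in Speer4d and 21.6% in Speer4e, and 7.88% to 9.47% in Speer4f2, Speer4f1 and Speer4a. With 50-base windows the share rose to 90.7% in Speer4c and stood at 5.24% in Speer2, which had the lowest share of the 9. These shares count transcripts in the annotation only, since the genome outside transcripts was not searched. They are thus a lower limit for the windows themselves. Reads were sequenced in pairs, and either mate can set a pair apart, so the shares are no lower limit for read pairs. How reads with several alignments were counted is not given in the sources used here, so single Speer4 copies are uncertain and the family sum is given beside them.

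**Figure D2:**
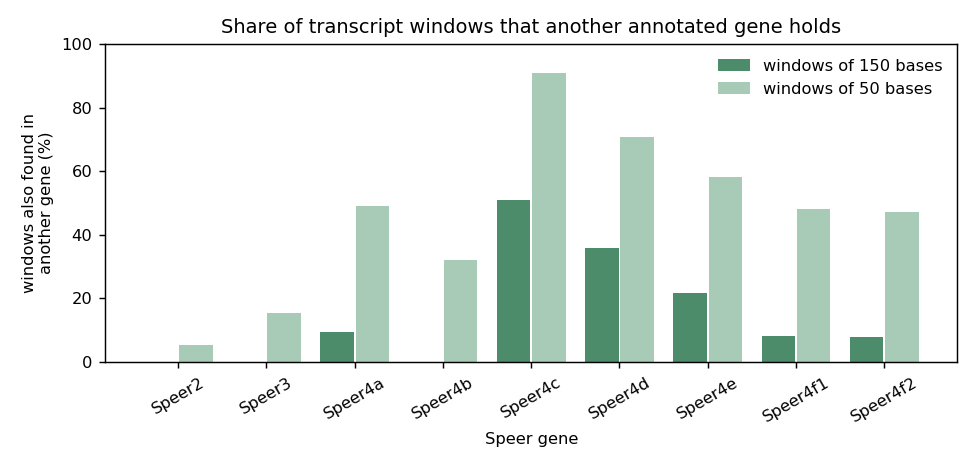
Share of the transcript windows of each Speer gene, in percent, that occur exactly in another annotated gene, for windows of 150 bases (dark bars) and 50 bases (light bars). Speer4c is highest in both, at 50.9% and 90.7%, while Speer2, Speer3 and Speer4b share no window of 150 bases.

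The first comparison asked which transcripts differed in Xap5l KO sperm. Library totals over both tables ran from 32251198 to 52308452 counts. The targeted gene Fam50b fell from 574, 440 and 419 counts in WT sperm to 18, 23 and 8 in KO sperm, a log2 fold change of -5.15 (SE 0.47, adjusted p = 0.0118 in the edgeR quasi-likelihood test, adjusted by Benjamini-Hochberg). In P16 testes Fam50a had counts of 819, 811 and 988 in WT against 673, 616 and 651 in Xap5 cKO. Its log2 fold change was -0.33 (adjusted p = 0.0495 in the same test), in RNA from whole testes. Fam50b fell there too, from 532, 539 and 197 counts in WT to 6, 0 and 7 in cKO. On the log2 scale this was -6.48 (adjusted p = 8.09e-05 by that test). Fam50a in turn fell from 548, 705 and 689 counts in WT sperm to 296, 487 and 649 in Xap5l KO sperm. On the log2 scale that was -0.76 (adjusted p = 0.0393 by that test). Both genes were thus lower in both comparisons, and the cause was not tested.

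The Speer genes were higher in Xap5l KO sperm. Summed over the 9 members, WT sperm held 721, 804 and 908 counts and KO sperm held 2970, 4707 and 2978. In CPM (counts scaled to library size, with factors from the TMM method), the family sum was 21.9, 19.1 and 19.6 in WT and 84.7, 84.9 and 51.1 in KO. The 3 KO libraries all stood above the 3 WT libraries, with KO replicate 3 the lowest of the KO group. The mean was 20.2 ± 1.48 CPM (SD, n = 3) in WT and 73.6 ± 19.5 CPM (SD, n = 3) in KO. The log2 fold change of the sum was 1.87 (SE 0.25), or 3.65-fold.

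All 9 members passed the filter on low counts, and 8 were called higher, a call being an adjusted p under 0.05 with a fold change above 2. Among all 20945 genes tested, 7.59% were called higher and 1.27% lower, and 0 members were called lower. The KO libraries stood wholly above the WT libraries for 8 members, and for 19.2% of all genes tested. The median log2 fold change was 2.0 over the 9 members and -0.08 over all genes tested. Since the list was chosen with these differences known, nothing is read from these shares. The calls rested on WT replicates 2 and 3 and on KO replicate 2: without any 1 of these, 0 members were called, in fits that called 1 gene of the whole table higher. With 1 library left out, the family sum lay between 1.75 and 2.15 on the log2 scale.

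Speer2, the copy on chromosome 16, had the highest level per length in WT sperm and the smallest difference. It had counts of 225, 177 and 166 in WT against 363, 534 and 379 in KO. As CPM these were 6.82, 4.20 and 3.58 in WT and 10.4, 9.63 and 6.50 in KO, so the KO replicate 3 lay below the WT replicate 1 and the groups overlapped. The means were 4.87 ± 1.72 and 8.83 ± 2.05 CPM (SD, n = 3 each), a log2 fold change of 0.86 (SE 0.30), and Speer2 was the member not called.

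Speer3, the nearest relative of Speer2 by sequence, lies within the chromosome 5 group. It had counts of 39, 54 and 74 in WT sperm against 230, 314 and 176 in KO sperm. The groups did not overlap, with 1.35 ± 0.216 CPM in WT and 5.08 ± 1.84 CPM in KO (SD, n = 3 each). Its log2 fold change was 1.90 (SE 0.34), just under the range of the Speer4 copies, which ran from 1.95 to 2.31.

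Speer4b gave the most counts of the family in KO sperm. It had counts of 86, 166 and 186 in WT against 645, 1079 and 584 in KO. The means were 3.52 ± 0.791 CPM in WT and 16 ± 5.18 CPM in KO (SD, n = 3 each), a log2 fold change of 2.18 (SE 0.30). Of the 3 members that shared no 150-base window with another annotated transcript, Speer4b and Speer3 were called higher and Speer2 was not.

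Speer4a, the copy most like Speer4b, had counts of 37, 46 and 78 in WT sperm against 189, 384 and 197 in KO sperm. Its means were 1.3 ± 0.332 and 5.23 ± 1.78 CPM (SD, n = 3 each), a log2 fold change of 2.0 (SE 0.34). The groups did not overlap, and Speer4a had the lowest level per length of the 9 in both genotypes.

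Speer4c, Speer4d and Speer4e form the closest trio by coding sequence and share the most windows. Speer4c had counts of 50, 64 and 61 in WT sperm against 260, 526 and 277 in KO sperm, with the largest log2 fold change of the 9 members, 2.31 (SE 0.30). Speer4d had counts of 43, 40 and 57 in WT sperm against 172, 333 and 171 in KO sperm, a log2 fold change of 1.99 (SE 0.33). All 3 KO libraries were above all 3 WT libraries for both copies. Speer4e had counts of 76, 85 and 69 in WT sperm against 257, 494 and 357 in KO sperm, a log2 fold change of 1.95 (SE 0.27), again without overlap.

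Speer4f1 and Speer4f2 are the pair with the highest identity. Speer4f1 had counts of 87, 77 and 86 in WT sperm against 393, 449 and 389 in KO sperm, a log2 fold change of 2.04 (SE 0.28). Speer4f2 had counts of 78, 95 and 131 in WT sperm against 461, 594 and 448 in KO sperm, a log2 fold change of 2.08 (SE 0.26). The KO libraries stood above the WT libraries for both, and the 2 differences were within 1 SE of each other.

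**Figure D3:**
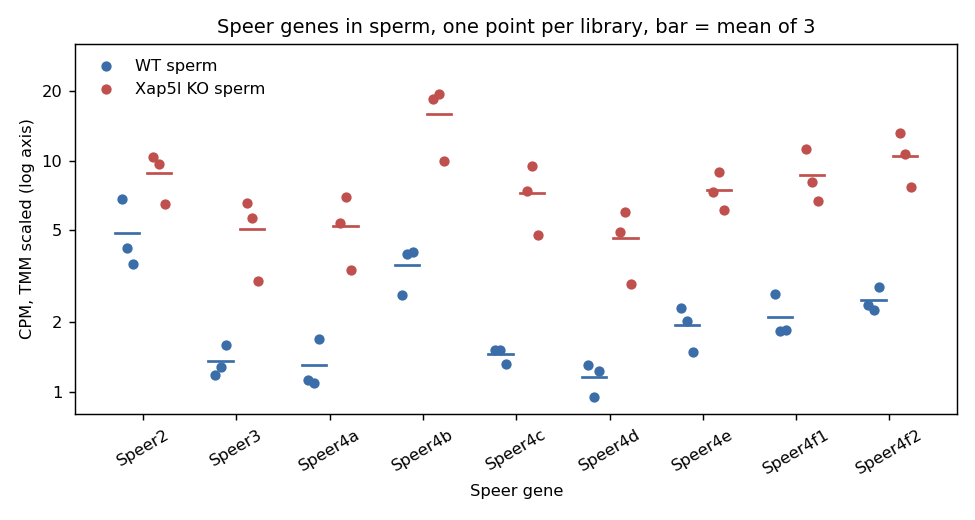
CPM of each Speer gene in the 3 WT sperm libraries (blue) and the 3 Xap5l KO sperm libraries (red) on a log axis, with a bar at each mean. The groups overlap for Speer2 and are apart for the other 8 members, with Speer4b reaching the highest KO mean of 16 CPM.

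Levels of different copies were compared as CPM per kb of annotated exon. That length takes no account of sequence shared with other genes. The shared part was 5.24% of 50-base windows in Speer2, 49.0% in Speer4a and 90.7% in Speer4c. The part of this sharing in the order of copies was not tested. In WT sperm the order ran from Speer2 at 4.18 ± 1.48 through Speer4f2 at 1.94 ± 0.236, Speer4f1 at 1.68 ± 0.366 and Speer4b at 1.33 ± 0.299 down to Speer4d at 0.881 ± 0.141 and Speer4a at 0.436 ± 0.112 (SD, n = 3 each). Speer4c, Speer4e and Speer3 lay between 1.14 and 1.21 and did not differ beyond their spread. Speer2 exceeded Speer4f2, Speer3 exceeded Speer4d and Speer4d exceeded Speer4a by more than the SD of either copy, while the other neighbours in this order differed by less. In KO sperm the order was Speer4f2 at 8.23 ± 2.14, Speer2 at 7.58 ± 1.76 and Speer4f1 at 6.89 ± 1.85, then Speer4c and Speer4b, both near 6, with Speer4a again the lowest at 1.76 ± 0.597 (SD, n = 3 each). Neighbours in the KO order differed by less than the larger of their SDs, apart from Speer4a and the next copy, Speer4d, at 3.50 ± 1.18. The copies were counted in the same libraries, so these SDs also hold spread that the copies share, such as the low KO replicate 3. They therefore do not decide whether neighbours in the order differ. Of the summed family counts, Speer2 made up 31.2%, 22% and 18.3% in WT and 12.2%, 11.3% and 12.7% in KO. Speer4b made up 11.9%, 20.6% and 20.5% in WT and 21.7%, 22.9% and 19.6% in KO.

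Of the 6 relatives in the sperm table, namely the other entries with a Speer symbol and Dlg5, 5 were tested, 2 were called higher and 0 lower. Speer5-ps1, a transcribed pseudogene on chromosome 10, had counts of 46, 32 and 42 in WT against 90, 128 and 166 in KO, a log2 fold change of 1.34 (adjusted p = 0.0309). Speer9-ps1, annotated as a long intergenic non-coding RNA, which shared no 50-base window with any other gene, had counts of 11, 9 and 4 in WT against 32, 41 and 57 in KO, a log2 fold change of 2.08 (adjusted p = 0.0314). Speer1, on chromosome 5, had counts of 117, 156 and 142 in WT against 280, 387 and 284 in KO, a log2 fold change of 0.94 (SE 0.25, adjusted p = 0.0426) that stayed under the fold threshold. Its counts are uncertain, since 63.7% of its 150-base windows occurred in other genes. Speer6-ps1 had counts of 0, 9 and 4 in WT against 16, 23 and 25 in KO and was not called (log2 fold change 2.02, SE 0.73, adjusted p = 0.0899). Speer4cos had 3 counts in each WT library and 10, 19 and 14 in KO, too few to be tested. Dlg5 had 29.3 ± 5.18 CPM in WT and 24 ± 5.04 CPM in KO (SD, n = 3 each) and was not called (log2 fold change -0.29, SE 0.23, adjusted p = 0.401). All p-values here came from the edgeR quasi-likelihood fit, adjusted by Benjamini-Hochberg over the table, and the count of relatives called higher was 0 without WT replicate 2, WT replicate 3, KO replicate 1 or KO replicate 2, and 3 without KO replicate 3.

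Genes that lie beside the members on the chromosome divided by whether they shared sequence with a member. Of 36 tested genes within 500 kb of a member, 23 were called higher and 0 lower. All 23 belonged to the 23 tested neighbours that held at least 1 window of 50 bases in common with a member, and their log2 fold changes ran from 1.36 to 2.25, with a median of 1.84. None of the 13 tested neighbours without such a window was called in either direction by edgeR's quasi-likelihood test with a fold threshold, their log2 fold changes running from -0.86 to 1.0 with a median of 0.01. Without the fold threshold, 1 of these 13 passed as lower, Dpp6, at an adjusted p of 0.0499. The neighbours with the largest called differences were Gm21655 (log2 fold change 2.25, adjusted p = 0.0139), Gm43391 (2.1, adjusted p = 0.0268) and Gm21190 (2.09, adjusted p = 0.0122), and Gm21190 had counts of 67, 90 and 93 in WT against 348, 622 and 301 in KO. The 23 calls became 14 without KO replicate 1 and 0 without WT replicate 2, WT replicate 3 or KO replicate 2.

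Over the whole annotation, and leaving out the entries with a Speer symbol described above, 43 genes of the sperm table shared a 50-base window with a member, a list drawn up after the neighbours had been seen. Of these, 37 were tested, 36 were called higher and 0 lower, with a median log2 fold change of 1.71. The 1 tested gene of this list not called was Gm8906, at 0.92 on the log2 scale (adjusted p = 0.0454), under the fold threshold. Speer1 and Speer6-ps1 also shared a 50-base window with a member and, as given above, were not called. Without KO replicate 1 the calls numbered 19, and without WT replicate 2, WT replicate 3 or KO replicate 2 they numbered 0. Some of the list, such as Gm21655 and Gm21190, shared a window of 150 bases, the length of a read, with a member. Others, such as Gm43391 and Gm8906, shared windows of 50 bases but none of 150 bases. Reads shared with the members can enter the counts of the former. For the latter, alike over shorter stretches, how far shared reads entered the counts was not tested. The list is therefore not separate evidence from the members. The summed level of the list was 87.4, 75.1 and 74.3 CPM in WT and 260, 276 and 163 CPM in KO, with KO replicate 3 again the lowest of its group. Adding these genes and the other Speer entries to the family sum gave a log2 fold change of 1.61.

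**Figure D4:**
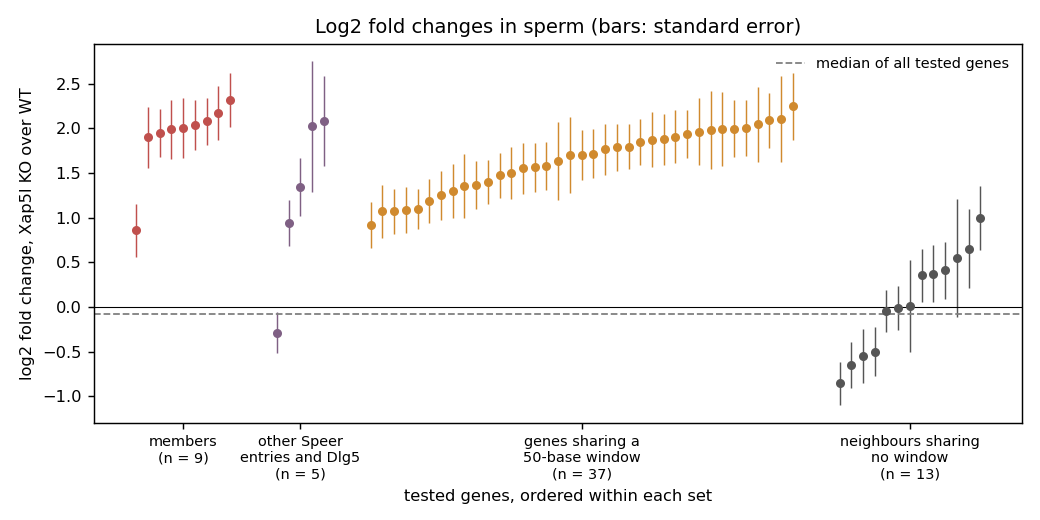
Log2 fold change with its standard error, Xap5l KO over WT sperm, for the tested members, the other Speer entries with Dlg5, the genes that share a 50-base window with a member, and the neighbours within 500 kb that share none. The 37 window-sharing genes lie between 0.92 and 2.25, while the 13 other neighbours lie between -0.86 and 1.0 around the dashed median of all tested genes at -0.08.

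Promoters of the members, taken from RefSeq as 250 bases before to 50 bases after the start of the gene on GRCm38.p6, were available for all 9. A run of 12 bases, TTCCTGTCAGTA on the strand of the gene, was found in 8 of the 9, all but Speer2. It was chosen as the run of 12 bases that most member promoters held, and, of 2 overlapping runs tied at 8, the rarer. It occurred on either strand in 16 of 32851 promoters (0.0487%), and the other run, CTTCCTGTCAGT, in 21 (0.0639%). Of the 8 other genes with it, 7 shared transcript windows with a member and the remaining gene, Fth1, shared none. Promoters of the Speer4 copies matched each other at 88.7% to 98.7% of aligned bases. The Speer3 promoter matched them at 77.3% to 83.3%. The run thus lies in promoters that are alike well beyond it, and its rarity does not set it apart from the sequence around it. The element is shown in capitals within 60 bases for 5 members that cover both the chromosome 5 outlier by sequence, Speer3, and the Speer4 copies, 5′ to 3′ on the strand of the gene:
Speer3, chr5:13791476-13791535, plus strand: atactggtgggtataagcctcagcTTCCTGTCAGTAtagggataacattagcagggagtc
Speer4b, chr5:27501519-27501578, minus strand: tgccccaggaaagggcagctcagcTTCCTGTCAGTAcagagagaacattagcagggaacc
Speer4d, chr5:15618922-15618981, plus strand: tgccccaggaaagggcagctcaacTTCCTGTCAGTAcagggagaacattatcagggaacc
Speer4f1, chr5:17475924-17475983, plus strand: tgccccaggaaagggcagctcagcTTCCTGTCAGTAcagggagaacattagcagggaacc
Speer4f2, chr5:17373008-17373067, plus strand: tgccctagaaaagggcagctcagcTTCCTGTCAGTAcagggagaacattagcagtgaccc
The element began 119 bases before the start in Speer3 and 118 to 174 bases before it in the Speer4 copies. CCCCGCCC, a GC-rich motif found in 17.6% of all promoters, was in 0 of the 9 member promoters, searched on both strands. The cAMP response element TGACGTCA, found in 1.79% of promoters, and TATAAA, found in 13.6%, were also in 0 of 9. These counts say only that the letters are not in these windows.

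Markers of round spermatids, which are haploid, moved with the Speer genes in sperm. Of 11 round spermatid markers tested, 10 were called higher in Xap5l KO sperm and 0 lower, with a median log2 fold change of 1.43, and their summed level ranged from 511 to 827 CPM in WT and from 1012 to 1323 CPM in KO. Most of this sum was Tssk2, with means of 495 CPM in WT and 760 CPM in KO. Tssk2 was the marker not called (log2 fold change 0.62, adjusted p = 0.168 in the edgeR quasi-likelihood test). Of 10 pachytene spermatocyte markers, 5 were called higher and 0 lower (median log2 fold change 0.94). Of 10 elongating spermatid markers, 1 was called higher and 0 lower (median 0.60), their sums overlapping between genotypes, with Smcp, the most abundant, at a log2 fold change of -0.97. Of 8 leukocyte markers, 0 were called higher and 2 lower (median -0.92), and their sum was 746 to 784 CPM in WT and 145 to 480 CPM in KO. Leptotene and zygotene markers gave 0 calls of 8 tested, spermatogonial markers 0 of 5, epididymal epithelium 0 of 6, Leydig cells 0 of 4 and peritubular myoid cells 0 of 5, and Sertoli cell markers gave 1 call of 6, lower. Summed levels stood apart between genotypes for the epididymal list, at 9553 to 12175 CPM in WT and 6442 to 8118 CPM in KO, and for the Leydig list, at 15.1 to 33.6 CPM in WT and 7.23 to 14.7 CPM in KO. The Sertoli sum was higher in KO, at 637 to 758 CPM in WT and 1051 to 1328 CPM in KO. Most of it was Clu, with means of 687 CPM in WT and 1203 CPM in KO. Clu was not called (log2 fold change 0.81, adjusted p = 0.0703 in the edgeR quasi-likelihood test). The median log2 fold change of the 6 tested Sertoli markers was -0.58, against the direction of the sum. Of the 9 epididymal markers, 2 had at most 3 counts in each of the 6 libraries. The part of these cells in the Speer difference was not tested. In bulk RNA, more cells of a type and more RNA per cell cannot be told apart.

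The genes whose pattern across the 6 sperm libraries was most like the family sum were Tex36, Tgif2lx2, Gm5415, Fsip1 and Gm21663. Pearson's r over the 6 libraries, on log2(CPM + 0.5), was 0.999 for Tex36, and 123 of 20931 genes had an r above 0.99. The 6 libraries fall into 2 genotypes, so such values mostly restate the difference between groups. Tex36, also a round spermatid marker here, rose from 9.43 ± 0.723 to 35.1 ± 10.1 CPM (SD, n = 3 each), and Gm21663 was the only one of the 5 that shared a window with a member.

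The second comparison asked which transcripts differed in Xap5 cKO testes at P16. The family gave few counts there. Speer3, Speer4f1 and Speer4f2 had 0 counts in all 6 libraries, which allows up to 3 counts per library, and 7 of the 9 members never exceeded 7 counts in a library. Speer4b was listed at 0 in every WT library and at 0, 7 and 5 counts in cKO. Speer4c had 4, 2 and 0 counts in WT, Speer4e had 7, 0 and 0, and both had 0 in every cKO library. Speer4d had counts of 0, 2 and 0 in WT against 1, 0 and 0 in cKO. Only Speer2 and Speer4a passed the filter on low counts, so what follows concerns these 2 members.

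Speer2, the member on chromosome 16, was the most abundant in WT testes and was not detected in cKO testes. It had counts of 160, 155 and 35 in WT against 0, 0 and 0 in cKO. All 3 WT libraries stood above the cKO libraries, with WT replicate 3 well below the other two. The WT mean was 3.33 ± 2.06 CPM (SD, n = 3). Against a floor of 3 counts per library in cKO, the WT mean was at least 36.7-fold higher, and at least 49.6-fold higher without WT replicate 3. These bounds hold for the WT mean, and WT replicate 3 alone, at 0.973 CPM, would give a smaller one. Speer2, which passed the filter on low counts through its WT libraries alone, was the 1 member called lower, where 10.9% of the 16821 genes tested were called lower and 4.15% higher, and 0 members were called higher. Speer2 was also the 1 member whose cKO libraries all lay below the WT libraries, as 32.4% of all genes tested did.

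Counts listed under Speer4a remained in cKO testes. Of its windows, 9.47% at 150 bases and 49.0% at 50 bases occurred in other genes, so some of these counts may belong elsewhere. Speer4a had counts of 25, 40 and 50 in WT against 75, 40 and 56 in cKO, and the groups overlapped. The means were 1.08 ± 0.323 and 1.73 ± 0.579 CPM (SD, n = 3 each), a log2 fold change of 0.68 (SE 0.42), and it was not called. Speer2 made up 81.6%, 77.9% and 41.2% of the family counts in the WT libraries, whereas Speer4a made up 98.7%, 85.1% and 91.8% in the cKO libraries.

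The family sum combined the members. It was counts of 196, 199 and 85 in WT testes against 76, 47 and 61 in cKO testes. As CPM it was 5.83, 5.46 and 2.36 in WT and 2.36, 1.38 and 1.85 in cKO, so WT replicate 3 fell level with cKO replicate 1. The means were 4.55 ± 1.91 and 1.86 ± 0.492 CPM (SD, n = 3 each), a log2 fold change of -1.29 (SE 0.39). The value depended on which entries were summed: it was -4.70 (SE 0.77) over the members other than Speer4a, -2.59 (SE 0.59) over every entry with a Speer symbol and -0.83 (SE 0.28) over all Speer entries and window-sharing genes.

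**Figure D5:**
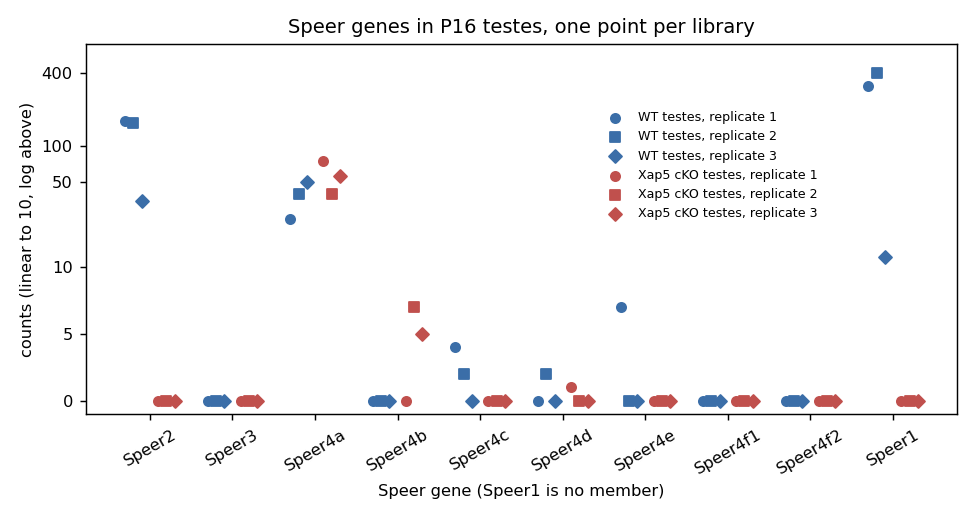
Counts of each Speer gene in the 3 WT testes libraries (blue) and the 3 Xap5 cKO testes libraries (red) at P16, one symbol per replicate, on an axis linear to 10 and logarithmic above, with Speer1 added at the right. Speer2 and Speer1 have counts in the WT libraries only, lowest in WT replicate 3, while Speer4a has counts in all 6.

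Of 3 relatives in the testis table, 2 were tested, 1 was called lower and 0 higher. Speer1 had counts of 311, 400 and 12 in WT against 0, 0 and 0 in cKO (adjusted p = 0.00393). Like Speer2, it passed the filter on low counts through its WT libraries alone, so this p-value is a description. Its WT mean was at least 75.5-fold above the floor of 3 counts, and at least 111-fold above it without WT replicate 3. For Speer1 as for Speer2, WT replicate 3 was far below the other WT libraries. At 0.333 CPM, that library alone would give a much smaller bound for Speer1. Dlg5 had 31.2 ± 2.61 CPM in WT and 53.5 ± 4.30 CPM in cKO (SD, n = 3 each), a log2 fold change of 0.78 (SE 0.10, adjusted p = 0.000247) under the fold threshold. Speer4d-2 had at most 3 counts in a library. These p-values came from the edgeR quasi-likelihood test, adjusted by Benjamini-Hochberg.

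Of 21 tested neighbours in the testis table, 0 were called higher and 2 lower, Pclo (log2 fold change -1.88, adjusted p = 0.000364 in the edgeR quasi-likelihood test, adjusted by Benjamini-Hochberg) and Xrcc2 (-1.01, adjusted p = 7.93e-05), neither of which shared a window with a member. Of the 12 tested neighbours with a shared window, 0 were called, and none of them passed without the fold threshold. Over the whole annotation, 13 genes with a shared window were tested and 1 was called lower, Gm5861. It had 42, 26 and 11 counts in WT and 0 in each cKO library (adjusted p = 0.00317 in the same test). Gm5861 also passed the filter on low counts through its WT libraries alone. In sperm Gm5861 had counts of 117, 99 and 115 in WT against 262, 411 and 294 in KO.

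Germ cell markers moved with Speer2 in the testes. Of 10 pachytene spermatocyte markers tested, 6 were called lower and 0 higher, with a median log2 fold change of -2.32. Their summed level was 1363, 1274 and 656 CPM in the WT libraries and 159 to 171 CPM in cKO. Of 8 leptotene and zygotene markers, 7 were called lower and 0 higher (median -1.25), and of 4 tested round spermatid markers 1 was called lower (median -1.40), with a sum of 37.2, 36.1 and 19.1 CPM in WT and 10.4 to 12.9 CPM in cKO. Of 8 spermatogonial markers 2 were called lower (median -0.52). Of 3 tested elongating spermatid markers 1 was called lower (median -0.86), and of 2 tested epididymal markers 1, Aqp9, was called lower. Somatic lists went the other way, with 5 of 6 leukocyte, 3 of 6 Leydig and 1 of 9 Sertoli markers called higher and 0 lower, and 0 of 5 peritubular myoid markers called. WT replicate 3, the WT library with the fewest Speer2 counts, had the lowest pachytene and round spermatid sums of the WT group. Across all tested genes its correlation with the cKO libraries was 0.948 to 0.952, against 0.919 to 0.925 for the other WT libraries. The part of lost spermatocytes in the Speer2 difference was not tested.

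Across the 6 testis libraries the genes most like the family sum were Kifc3 (r = 0.992), Coa4, Pigs, Fhod1 and Krt23, by Pearson's r on log2(CPM + 0.5), and 2 of 16817 genes had an r above 0.99. Side by side, the 2 comparisons share no library and differ in tissue and age. They also differ in the entries counted, 51826 in sperm and 23502 in testes, with 43 and 22 window-sharing genes among them. Sums over all Speer entries or window-sharing genes therefore do not hold the same genes in the 2 tissues. Speer2 had a log2 fold change of 0.86 in Xap5l KO sperm. In the testes its WT mean was at least 36.7-fold above the floor, with 0 counts in each Xap5 cKO library. Speer4a had log2 fold changes of 2.0 in sperm and 0.68 in testes.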

How the data were processed

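RNA-seq libraries of P56 sperm and P16 testes were analysed from the deposited tables of counts, 1 per tissue. Per the labels and the study's methods, the authors isolated RNA with TRIzol, selected poly(A) RNA, sequenced paired reads of 150 bases, checked them with FastQC 0.11.2, trimmed them with Trimmomatic 0.36 and aligned them to GRCm38 with HISAT2 2.1.0; they assembled the reads with StringTie, measured expression as FPKM and made their comparisons with DESeq2 1.12.4. How the deposited counts were taken from the alignments, the treatment of reads with several alignments and the strand setting are not given in the sources used here. Reads lost or split between near-identical copies would lower the counts of single copies.

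Whole tables were fitted per tissue with edgeR 4.0.16 in R 4.3.3 (filterByExpr, TMM, glmQLFit and glmQLFTest, genotype only). A gene was called at a Benjamini-Hochberg adjusted p under 0.05 and a fold change above 2. The family sum was fitted as 1 entry in place of the 9 members. Totals were 32251198 to 52308452 counts per library. With 3 libraries per group, SDs give the spread between libraries, and floors cover counting error only. The SE of a log2 fold change was derived from the quasi-likelihood F statistic. Its dispersion draws on all genes tested, so the SE is not that spread. Shared windows and coding sequences came from GENCODE M21 transcripts, aligned with MAFFT 7.526. The script was tested on simulated data. Alternatives were other filters, scalings, DESeq2 1.42.0, a replicate block and leaving out each library.

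The members and lists were chosen with earlier results of these data known; the list of window-sharing genes, the promoter element and the added alternatives were chosen after seeing the data. Genes were named by a rule: all members, all other Speer entries and Dlg5, the 3 neighbours called with the largest log2 fold change, the most abundant gene of a marker list, the targeted genes and the 5 genes nearest in pattern; Dpp6, Gm8906, Gm5861 and Aqp9 were named after their values were seen. Relatives by protein sequence were not analysed here.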

Additional observations from a re-analysis of the deposited data

How the results depend on the processing

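The family sum kept its direction under every alternative run, from 1.61 to 2.15 on the log2 scale in sperm; in testes it was -1.60 to -1.07 when 1 library was left out, -2.59 with every Speer entry summed, -4.70 without Speer4a and -0.83 with the window-sharing genes added. The 9 members fitted in sperm and the 2 fitted in testes kept their direction under each alternative that gave them a value. Leaving out 1 sperm library gave 0 to 9 members, 0 to 3 relatives, 0 to 23 neighbours and 0 to 37 window-sharing genes called higher, and 0 to 1 neighbours called lower; without Xap5l KO replicate 1 the table had 483 genes called higher, with 14 neighbours and 19 window-sharing genes among them. The counts of 0 members, neighbours and window-sharing genes called higher arose without WT replicates 2 or 3 or KO replicate 2, where 1 gene of the whole table was called higher, and that of 0 relatives also without KO replicate 1. Relatives called higher in sperm numbered 1 with at least 10 counts in every library, and 1 neighbour was called lower without the fold change threshold. In testes, requiring at least 10 counts in every library removed Speer2 and Speer1, leaving 0 members, 0 relatives and 0 window-sharing genes called lower, and 1 neighbour and 1 window-sharing gene called higher. Without the fold change threshold, 1 relative and 3 neighbours were called higher in testes. Window-sharing genes called lower in testes numbered 3 without the filter on low counts, 3 with DESeq2, and 1 to 3 when 1 library was left out, and neighbours called higher 0 to 1.

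Same-numbered WT and knockout libraries did not deviate together (r = 0.17, -0.02 and -0.12 in sperm; 0.0071, -0.03 and -0.03 in testes), so the replicate numbers were not taken as pairs. With the replicate block, the family sum was 1.83 in sperm and -1.22 in testes, 8 members were called higher in sperm, 1 was called lower in testes, and 0 relatives were called higher in sperm, against 2 without the block.

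Low counts of the members limit the testes: 7 of 9 members never exceeded 7 counts in a library, so a difference in them was not detectable at such counts.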
